A study of Homo sapiens with 12 samples.

Results

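In 42 protein-coding gene entries the effective transcript length differed between cells carrying an mCherry-lamin B1 construct and cells carrying mCherry alone. Effective length is the number of start positions that a transcript offers to a sequenced fragment, and the deposited gene value is the abundance-weighted mean over the transcripts of the gene. The entries were chosen for a mean of at least 5 TPM (transcript abundance, a level scaled by effective length and library) in the 6 libraries of each construct, and for an absolute log2 ratio of mean effective length, LmnB1 over mCherry, of at least 0.3. LMNB1 itself was left out. The 42 entries carry 41 gene symbols, since the pseudoautosomal gene PLCXD1 is listed once on X and once on Y. They were chosen from 9552 protein-coding genes at that level, among 60708 gene identifiers in all. Because the difference in effective length between constructs chose the entries, that difference is described below and not tested. Tests of effective length were made only between the 2 clones of a construct. A clone that stands apart also moves the mean of its construct, so these tests are not independent of the choice, and the number of entries called in them is a description.

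The cells were hTERT RPE-1, an established line of human retinal pigment epithelium kept dividing by telomerase, grown as 4 clonal lines. The mCherry_3 and mCherry_4 clones overexpressed the fluorescent protein mCherry, and the LmnB1_6 and LmnB1_16 clones overexpressed mCherry-lamin B1. All 4 clones had doxycycline at 0.05 ug/mL for 24 hours and grew in medium with hygromycin B. Each gave 3 libraries labelled as biological replicates, and the labels do not say that they came from separate cultures, so a p-value here reflects only how these libraries vary. There are 2 clones for each construct, and the 3 libraries of 1 clone do not stand for separate samples of its construct.

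Most human genes give several transcripts that differ in where transcription starts, which exons are joined and where the RNA is cleaved and polyadenylated. Splicing is steered by RNA-binding proteins such as the SR and hnRNP families, and the end of the message by the cleavage and polyadenylation complexes. Transcripts with a premature stop codon can be removed by nonsense-mediated decay. A change in the mixture changes the mean transcript length of the gene even where the number of reads stays the same. Lamin B1 is a filament protein of the nuclear lamina, the meshwork under the inner nuclear membrane.

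The libraries held 20.6 to 29.5 M estimated counts each. LMNB1 checked the labels: its TPM lay between 45.9 and 98.4 in the 6 mCherry libraries and between 4363 and 5794 in the 6 LmnB1 libraries. The median library shift of log2 effective length over the 9552 genes was between -0.01 and 0.02. Of 12 markers of pigment epithelium, 8 passed the count filter, and the visual-cycle and pigment genes RPE65, RLBP1, TYR and DCT did not. The summed level of the 8 was 108 CPM (counts scaled to library size) in mCherry_3 and 88.99 in mCherry_4, and 45.05 in LmnB1_6 and 86.9 in LmnB1_16. The factor MITF stood at 58.6, 48.97, 0.06 and 31.3 CPM in these clones and the factor OTX2 at 12.6, 11.1, 0 and 15.5 CPM, so both were at or near 0 in LmnB1_6. Other markers of the list went the other way. RDH10, a retinol dehydrogenase, stood at 15.0, 14.0, 33.3 and 27.5 CPM, and the secreted factor SERPINF1 at 0.53, 0.20, 1.43 and 0.59 CPM. Between constructs edgeR called both higher in LmnB1, and RDH5 and LRAT lower, with the 3 libraries of a clone as separate samples. Of these called genes only RDH10 passed in each of the 4 pairs of clones. MITF, which was not called between constructs, also passed in each of the 4 pairs, lower in both LmnB1 clones. With counts summed per clone no gene was called. The summed keratin level was 1214, 889, 634 and 823 CPM in the same order, nearly all of it KRT8 and KRT18. KRT7 was highest in LmnB1_6, at 8.12, 13.8, 18.7 and 12.4 CPM, and KRT19 did not pass the count filter. Fewer cells of a type and less RNA per cell cannot be told apart in such bulk samples.

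Sequences of 3 of the genes are printed here. In PXMP2 and SERPINB7 the lengths in single clones lie close to those of annotated transcripts. CABYR is printed because its libraries lay apart between constructs, and its lengths do not point to the transcripts chosen. The first set is for PXMP2 and CABYR. It shows 24 coding bases before an exon end in lower case and the next 24 bases of the transcript in capitals, from GENCODE 29 transcripts (GRCh38, plus strand). In PXMP2 on chromosome 12 the lower-case part ends at the last base of exon 2 (132690376). PXMP2-201 (957 bases, 5 exons) goes on with exon 3 at 132695884, and PXMP2-205 (632 bases, 3 exons) goes on with its last exon at 132704619. In CABYR on chromosome 18 the lower-case part ends at 24156042. CABYR-203 (1414 bases) is spliced there to 24159472, and CABYR-216 (2226 bases) reads on through the same exon.
PXMP2-201: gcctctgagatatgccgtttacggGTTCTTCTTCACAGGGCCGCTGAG
PXMP2-205: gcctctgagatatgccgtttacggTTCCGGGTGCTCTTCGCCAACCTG
CABYR-203: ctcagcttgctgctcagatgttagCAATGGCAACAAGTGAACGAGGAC
CABYR-216: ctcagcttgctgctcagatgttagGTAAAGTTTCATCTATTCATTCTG

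The second set gives the 250 bases before each of the 3 RefSeq starts of SERPINB7 (GRCh38.p14, chromosome 18, plus strand), with matches to the TATA motif TATAAA, searched on both strands, in capitals. Start 3 has 2 matches and the other starts have none. In the windows of the same size before 35116 RefSeq starts, 10.7% hold TATAAA and 32.0% hold CCAAT, which none of the 3 SERPINB7 windows holds.
SERPINB7 start 1 (chr18:63752807-63753056): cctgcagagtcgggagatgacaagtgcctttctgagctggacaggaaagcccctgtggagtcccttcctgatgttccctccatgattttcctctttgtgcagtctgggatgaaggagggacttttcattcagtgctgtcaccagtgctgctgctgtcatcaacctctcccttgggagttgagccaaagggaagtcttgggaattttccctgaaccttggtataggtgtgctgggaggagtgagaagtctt
SERPINB7 start 2 (chr18:63775168-63775417): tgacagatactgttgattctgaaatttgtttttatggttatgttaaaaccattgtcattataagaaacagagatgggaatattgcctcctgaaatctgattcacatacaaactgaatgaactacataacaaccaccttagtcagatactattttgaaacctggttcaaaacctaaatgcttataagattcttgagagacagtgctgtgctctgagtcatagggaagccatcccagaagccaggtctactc
SERPINB7 start 3 (chr18:63777531-63777780): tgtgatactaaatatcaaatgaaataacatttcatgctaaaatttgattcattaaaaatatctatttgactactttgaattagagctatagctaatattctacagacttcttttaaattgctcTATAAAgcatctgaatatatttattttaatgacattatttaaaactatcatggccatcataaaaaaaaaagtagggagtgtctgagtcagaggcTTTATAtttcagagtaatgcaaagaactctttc

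The 42 entries were 0.44% of the 9552 genes, and 15 were longer and 27 shorter in the LmnB1 libraries. Log2 ratios ran from 0.30 to 0.49 among the longer and from -0.64 to -0.30 among the shorter. Entries near the threshold differed little from the genes it left out. Just inside were FAM156A, whose mean was 2538 bases in mCherry and 2059 in LmnB1, SERPINB7 (1473 and 1816), the inflammatory protease gene CASP1 (1055 and 855), PYROXD1 (2724 and 2195) and ANKRD12 (6180 and 4970). Just outside were the mismatch repair gene MLH3 (3633 and 2951), TMEM164 (3805 and 4679), STK32C (535 and 658), DOCK10 (4745 and 5836) and STIMATE (3700 and 3012).

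The chosen genes were of low abundance and their effective lengths varied between libraries of the same clone. Their median level was 10.3 TPM against 30.4 TPM over the 9552 genes, and their median count was 329 against 1163. The median SD of log2 effective length between libraries of a clone was 0.26 for the 42 and 0.06 for the 9552. The ratio between constructs was at least 2 such SDs in 12 of the 42 and under 1 SD in 12 others. The genes had a median of 11 annotated transcripts against 8, and their longest transcript was a median 11.8 times the shortest, against 7.64. By position, 5 entries each lay on chromosomes 18, X and 12, which is 11.9% of the entries against 1.47%, 3.12% and 5.48% of the 9552 genes. On chromosome 19 there were 3, or 7.14% against 6.21%. Those on X include PLCXD1 and DHRSX, which have a copy on Y, and COL4A5, which had 0 counts in LmnB1_6.

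**Figure D1:**
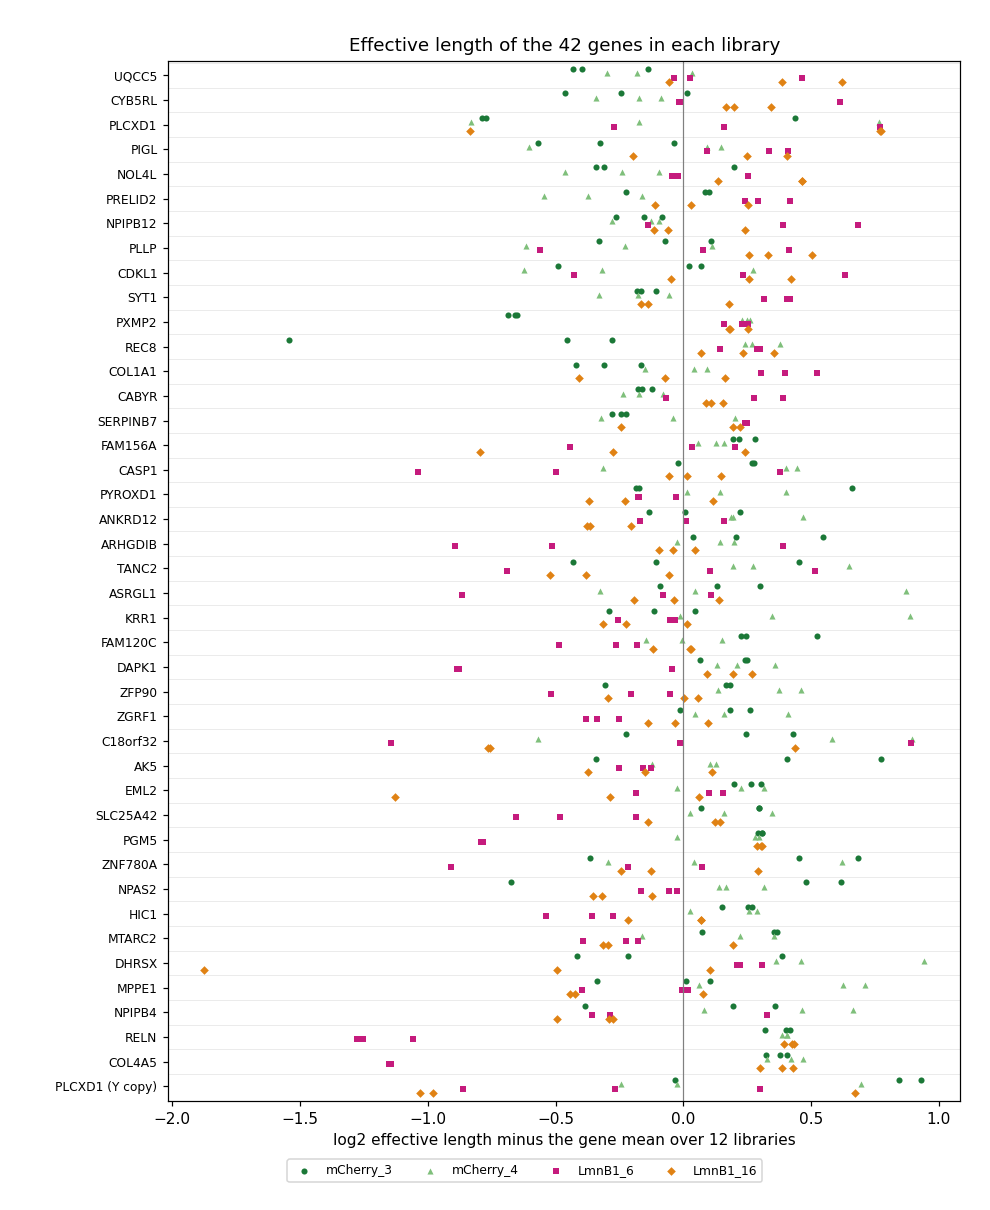
Effective length of each of the 42 entries in the 12 libraries, as log2 effective length minus the gene's mean over the libraries (x axis). Colours and symbols mark the 4 clones, with 3 libraries each. The points of the clones overlap in every row but that of CABYR when the LmnB1 clones are set against the mCherry clones.

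Only 1 of the 42 had all 6 LmnB1 libraries on one side of all 6 mCherry libraries, against 36 of the 9552 genes (0.377%). This gene was CABYR (chromosome 18, 24138956 to 24161603, plus strand), which encodes a calcium-binding protein of the sperm tail. Its effective length was 862, 896 and 871 bases in mCherry_3 and 829.5, 866 and 923 in mCherry_4, and 1183, 930.1 and 1280 in LmnB1_6 and 1086, 1038 and 1051 in LmnB1_16. The mCherry clones lay together, and the lowest LmnB1 library was only just above the highest mCherry library. The log2 ratio was 0.32, or 1.25-fold, and was 0.28 without LmnB1_6. The clone means rested on 83 to 147 counts per library. CABYR level was 6.88 ± 1.06 TPM in mCherry_3 and 6.62 ± 0.87 in mCherry_4, and 6.65 ± 1.69 in LmnB1_6 and 5.58 ± 0.44 in LmnB1_16 (SD, n = 3 libraries each), and these ranges overlapped.

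In 4 entries each LmnB1 clone differed from each mCherry clone by at least 0.3 in the same direction, against 0.0419% of the 9552 genes, which is the same 4. They were UQCC5, CYB5RL, CDKL1 and the Y entry of PLCXD1. UQCC5, an assembly factor of mitochondrial complex III that older annotation calls SMIM4, had the largest rise. Its effective length was 249.8, 209 and 204 bases in mCherry_3 and 282, 243 and 224 in mCherry_4, and 280.5, 268 and 380 in LmnB1_6 and 265, 423 and 359.8 in LmnB1_16. The groups overlapped through 1 mCherry_4 library. Its annotated transcripts run from 274 to 1770 bases.

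CYB5RL, a relative of cytochrome b5 reductase, measured 2593 ± 432 bases in mCherry_3 and 2630 ± 232 in mCherry_4, and 3529 ± 937 in LmnB1_6 and 3555 ± 237 in LmnB1_16 (SD, n = 3). The clones of a construct had nearly the same mean, and the LmnB1_6 libraries spread from 2983 to 4611. CDKL1, a gene for a cyclin-dependent kinase-like protein, measured 3024 ± 605, 2899 ± 946, 3776 ± 1317 and 3814 ± 614 bases in the same order. Its highest deposited length, 5338 bases before the effective-length correction, exceeded the 2982 bases of its longest GENCODE 29 transcript. The same held in 5 of the 42, so the annotation behind the deposited lengths holds transcripts that GENCODE 29 does not.

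Leaving out 1 clone at a time took many entries below the threshold of 0.3. The number below it was 9 without mCherry_3, 13 without mCherry_4, 19 without LmnB1_6 and 8 without LmnB1_16, and 7 stayed at or above it in all 4 cases. Those 7 were UQCC5, CYB5RL, CDKL1, the Y entry of PLCXD1, MTARC2, NPAS2 and PIGL. In 32 entries all 4 pairs of an LmnB1 and an mCherry clone had the same sign.

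**Figure D2:**
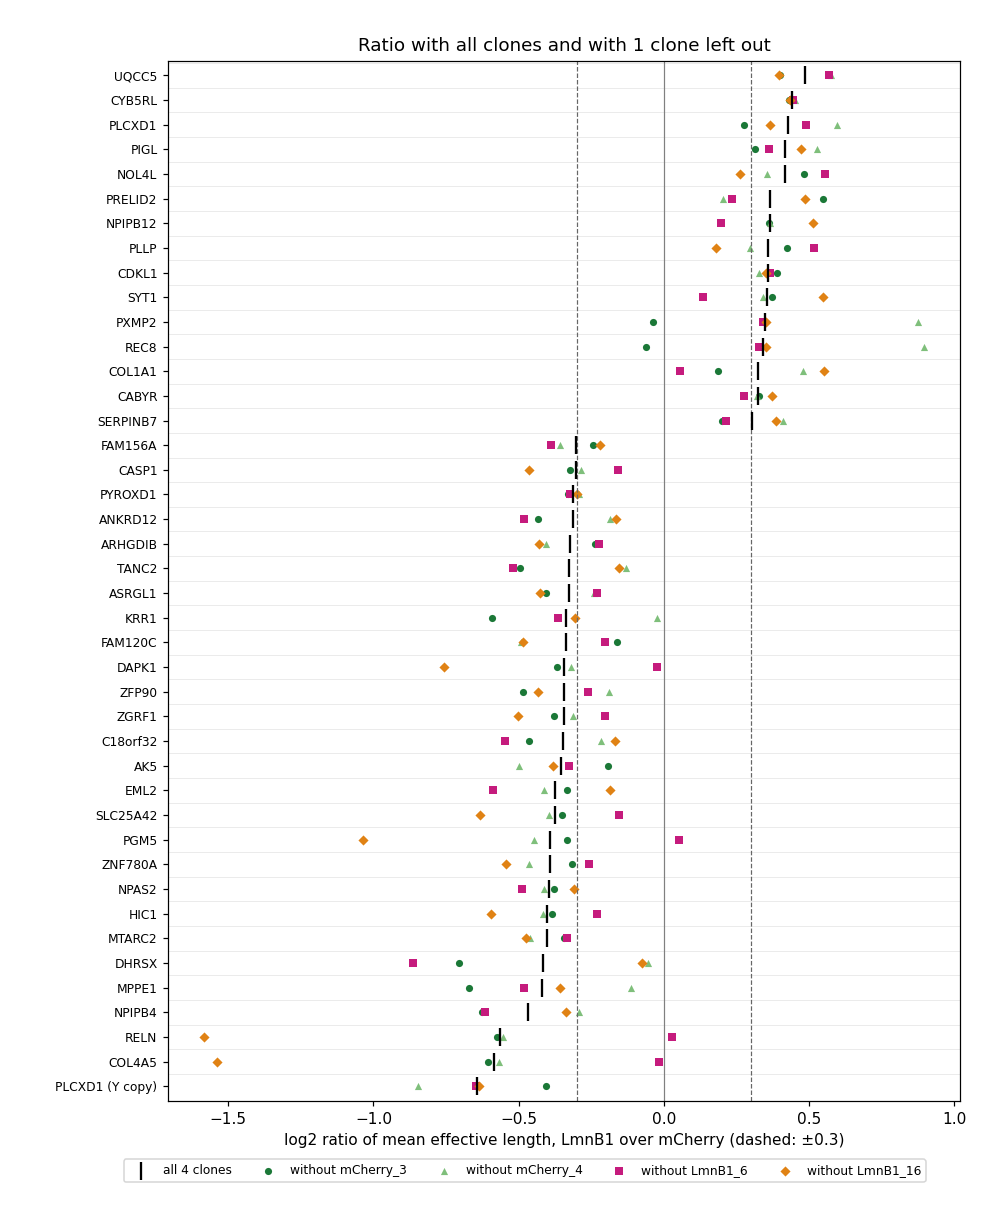
Log2 ratio of mean effective length, LmnB1 over mCherry, for each entry with all 4 clones (black bar) and with 1 clone left out (coloured symbols). Dashed lines mark ±0.3. Symbols of PXMP2 and REC8 without mCherry_3, and of COL4A5, RELN, PGM5 and DAPK1 without LmnB1_6, are among those near 0.

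Among the 7, MTARC2 encodes a molybdenum-dependent reductase of the outer mitochondrial membrane. Libraries measured 1657, 1355 and 1647 bases in mCherry_3 and 1499, 1149 and 1647 in mCherry_4, and 1137, 979.7 and 1101 in LmnB1_6 and 1048, 1036 and 1472 in LmnB1_16. LmnB1 libraries were mostly shorter and overlapped the mCherry range at 1149 to 1472 bases. NPAS2, a transcription factor of the circadian clock, measured 2796 ± 1153 bases in mCherry_3 and 2728 ± 184 in mCherry_4, and 2230 ± 110 in LmnB1_6 and 1969 ± 172 in LmnB1_16. One mCherry_3 library, at 1477 bases, was shorter than all LmnB1 libraries. PIGL, an enzyme of the glycosylphosphatidylinositol (GPI) anchor pathway, measured 573 ± 106, 664 ± 174, 857 ± 95.4 and 794 ± 164 bases in this order of clones (SD, n = 3).

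Effective length was then tested between the clones of each construct. The 4 entries called met the rule through the clone that the test compares, so their number adds no evidence to the choice. Between the mCherry clones 1 of the 42 passed the test, against 0.0523% of the 9552 genes (5 genes), by limma at an adjusted p under 0.05. Between the LmnB1 clones 3 of the 42 passed, against 0.0838% (8 genes), and 6 of those genes, or 0.0628%, also differed by at least 0.3. None of the 3 had at least 10 counts in every library. Among the 37 entries that had, 1 passed between the mCherry clones and 0 between the LmnB1 clones. At an unadjusted p under 0.05 in limma these were 6 and 8. Among all protein-coding genes at this TPM, LMNB1 counted in, 5 with at least 10 counts passed in each contrast. No share over all genes is given for the unadjusted counts, and nothing is read from them. At the size of the rule itself, an absolute log2 ratio of 0.3, the mCherry clones differed from each other in 12 of the 42 and in 1.35% of the 9552 genes. For the LmnB1 clones these figures were 17 of the 42 and 1.78%.

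The entry that passed between the mCherry clones was PXMP2 (chromosome 12, 132687606 to 132704991, plus strand), a channel-forming protein of the peroxisomal membrane. Its effective length was 351, 344 and 353 bases in mCherry_3 against 662, 658 and 649.5 in mCherry_4, and 618, 648 and 660 in LmnB1_6 and 659, 628 and 626 in LmnB1_16. All 3 mCherry_3 libraries lay far below the other 9, which overlapped one another. The log2 difference of mCherry_4 from mCherry_3 was 0.91 (SE 0.03, limma adjusted p = 7.91e-07), and LmnB1_16 differed from LmnB1_6 by -0.01 (95% interval -0.07 to 0.05).

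The uncorrected PXMP2 length was 623, 597 and 618 bases in mCherry_3 and 895 to 935 bases in the other 9 libraries. The first range is near the 632 bases of PXMP2-205, whose junction skips 2 of the 5 exons of PXMP2-201 in the sequences above, and the second is near the 957 bases of PXMP2-201. A gene-level length does not say which transcript was read: PXMP2-203 (537 bases), PXMP2-204 (516 bases) and PXMP2-202 (762 bases) are also annotated. PXMP2 counts were 924, 1189 and 1109 in mCherry_3 and 421, 408 and 453 in mCherry_4, and 479, 431 and 592 in LmnB1_6 and 390.0, 259 and 445 in LmnB1_16, so the clone with the short form had the most reads. The log2 fold change of counts, mCherry_4 over mCherry_3, was -1.11 (SE 0.11, edgeR adjusted p = 1.52e-06). TPM, which divides reads by length, stood at 176 ± 17.5 in mCherry_3 against 39.5 ± 2.47, 44.9 ± 1.19 and 36.6 ± 5.01 in the others. Without mCherry_3 the ratio between constructs was -0.037.

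REC8, a cohesin subunit known from meiosis, followed the same clone on few reads. Effective lengths were 504, 1209 and 1072 bases in mCherry_3 and 1733, 1769 and 1906 in mCherry_4, and 1624, 1808 and 1793 in LmnB1_6 and 1541, 1880 and 1725 in LmnB1_16. mCherry_3 lay below all others, on 23 to 31 counts per library against at least 215 elsewhere. The difference of 1.05 between the mCherry clones (SE 0.27) did not pass (limma adjusted p = 0.575). Counts of REC8 were higher in mCherry_4 than in mCherry_3 by a log2 fold change of 4.17 (edgeR adjusted p = 6.52e-12).

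In MPPE1 and KRR1, 2 of the 3 mCherry_4 libraries lay above all other libraries. MPPE1, a phosphoesterase that trims GPI anchors, measured 936, 878 and 689 bases in mCherry_3 and 1345, 1426 and 908 in mCherry_4, and 663, 882 and 869 in LmnB1_6 and 649.6, 921 and 642 in LmnB1_16. KRR1, a factor of small ribosomal subunit assembly, measured 2645 ± 308, 3924 ± 1252, 2654 ± 224 and 2550.0 ± 308 bases in the same order, with 1 mCherry_4 library at 5293. Neither difference between the mCherry clones passed the test (limma adjusted p = 0.927 for both). Without mCherry_4 the ratios between constructs were -0.11 for MPPE1 and -0.024 for KRR1.

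LmnB1_6 stood apart in SYT1, HIC1, SLC25A42 and COL1A1. SYT1 (chromosome 12, plus strand), the calcium sensor of synaptic vesicle release, measured 2854, 2980 and 2827 bases in mCherry_3 and 2836, 3084 and 2550.2 in mCherry_4, and 4248, 3994 and 4277 in LmnB1_6 and 2915, 3633 and 2858 in LmnB1_16. All LmnB1_6 libraries were above the other 9, and LmnB1_16 overlapped the mCherry clones. LmnB1_16 differed from LmnB1_6 by -0.42 (95% interval -0.63 to -0.21), which did not pass over all genes (limma adjusted p = 0.283). The uncorrected SYT1 lengths of 4526, 4261 and 4544 in LmnB1_6 lie near SYT1-201 (4808 bases) and SYT1-204 (4592 bases). The last exons of these hold 3089 and 3091 bases. Of the other 9 lengths, 8 lie nearer to SYT1-202 (3095 bases, last exon 1362 bases) or SYT1-212 (2718 bases, last exon 1377 bases). The remaining one, of LmnB1_16, was 3900 bases, nearer to SYT1-204. Here too a gene-level length does not say which transcript was read. SYT1 counts were lower in LmnB1_16 than in LmnB1_6 by -1.21 (SE 0.07, edgeR adjusted p = 4.56e-10). In the neuronal marker list the 4 tested genes of 5 summed to 166 CPM in mCherry_3 and 289 in mCherry_4, and 503 in LmnB1_6 and 315 in LmnB1_16. Most of this sum was TUBB3, at 152, 265, 459 and 270 CPM in this order. MAP2 was highest in LmnB1_16, at 13.1, 23.1, 26.6 and 43.2 CPM, and SNAP25 in LmnB1_6, at 0.46, 0.64, 16.7 and 1.29. SYP stood at 0.49, 0.31, 0.66 and 0.41 CPM. RBFOX3 of that list did not pass the count filter. The part of these genes in the SYT1 values was not tested.

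HIC1 (chromosome 17, plus strand), a zinc-finger transcriptional repressor, was shorter in LmnB1_6. It measured 5717, 6199 and 6139 bases in mCherry_3 and 6277, 6147 and 5236 in mCherry_4, and 4253, 4021 and 3543 in LmnB1_6 and 5399, 5399 and 4430 in LmnB1_16. LmnB1_6 lay below all other clones and LmnB1_16 between it and the mCherry clones, with which it overlapped. The LmnB1 clones differed by 0.36 (95% interval 0.14 to 0.59, limma adjusted p = 0.495). The last exon of HIC1-207 (6711 bases) holds 6571 bases, and those of HIC1-201 (3053 bases) and HIC1-202 (3156 bases) hold 3016. HIC1 level was 4.92 ± 0.06 TPM in mCherry_3 and 5.78 ± 0.79 in mCherry_4, and 20.9 ± 2.74 in LmnB1_6 and 9.46 ± 0.69 in LmnB1_16, so the clone with the shortest form had the highest level.

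COL1A1, the alpha 1 chain of type I collagen, was named here after its values were seen. Libraries measured 2348, 2179 and 2595 bases in mCherry_3 and 2629, 2999.8 and 3108 in mCherry_4, and 4184, 3600.4 and 3842 in LmnB1_6 and 3264, 2773 and 2198 in LmnB1_16. LmnB1_6 lay above the rest, and the other clones overlapped. Counts were 4012, 3271 and 6688 in LmnB1_6 and between 332 and 635 elsewhere, and the LmnB1 clones differed in counts by -3.17 (SE 0.14, edgeR adjusted p = 1.62e-11). Their difference in effective length, -0.51 (95% interval -0.82 to -0.21), did not pass (limma adjusted p = 0.451). The full-length transcript COL1A1-201 has 6727 bases in 51 exons. SLC25A42, the mitochondrial carrier of coenzyme A, measured 2666 ± 235, 2588 ± 291, 1695 ± 284 and 2358 ± 250 bases in mCherry_3, mCherry_4, LmnB1_6 and LmnB1_16, and its LmnB1 difference of 0.48 did not pass (limma adjusted p = 0.495).

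**Figure D3:**
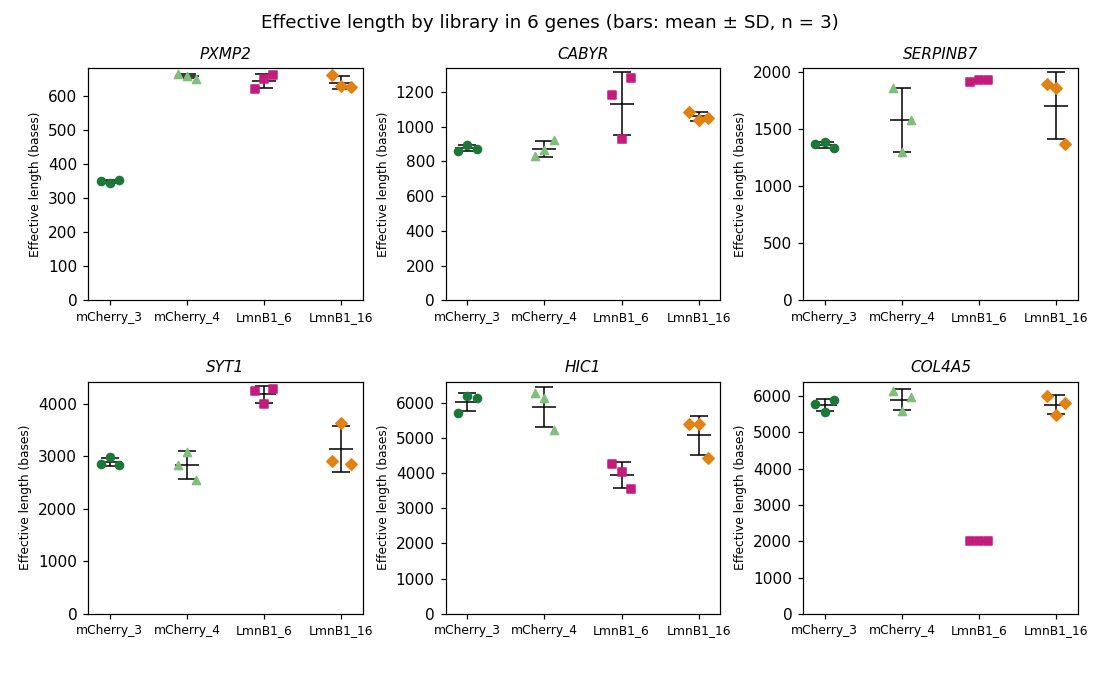
Effective length in bases (y axis, from 0) of 6 genes in the 3 libraries of each clone (points), with mean ± SD. PXMP2 is short in mCherry_3, SYT1 long and HIC1 short in LmnB1_6, and COL4A5 lies between 2002 and 2012 bases in the 3 LmnB1_6 libraries, in which it had 0 counts.

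SERPINB7 (chromosome 18, 63752935 to 63805376, plus strand), an inhibitor of serine proteases, had separate values within clones. Its effective length was 1369.6, 1388 and 1337 bases in mCherry_3 and 1865, 1299 and 1578 in mCherry_4, and 1917, 1927 and 1927 in LmnB1_6 and 1894, 1858 and 1371 in LmnB1_16. The mCherry_3 libraries lay together at the low end and the LmnB1_6 libraries together at the top, and the other clones covered both ends. The uncorrected length in LmnB1_6 was 2195 bases in all 3 libraries. This lies between SERPINB7-206 (2193 bases) and SERPINB7-202 (2203 bases), whose first exons begin at 63775375 and 63775410, near start 2 of the printed windows. The transcripts from start 1 (SERPINB7-201, 1976 bases) and start 3 (SERPINB7-207, 1951 bases) are shorter. No difference between clones of a construct passed (limma adjusted p = 0.991 and 0.950), with 119 to 402 counts per library.

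In 5 entries the ratio rested on LmnB1_6 libraries with almost no reads: COL4A5, PGM5, DAPK1, RELN and ARHGDIB had fewer than 10 counts in each of them, the last named after its values were seen. COL4A5, a chain of basement membrane collagen IV, had 0 counts in all 3 LmnB1_6 libraries, against 1700.0 to 1994 in mCherry_3, 833 to 905 in mCherry_4 and 839 to 1288 in LmnB1_16. Its uncorrected length was listed as 2280 bases in each of these 3 libraries and between 5739 and 6426 bases in the other 9. PGM5, a cytoskeletal protein related to phosphoglucomutase, also had 0 counts in all 3 and a listed length of 1846 bases, against 2944 to 3628 bases elsewhere.

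The listed length of a gene with no reads is not a measurement. All 4903 genes with several transcripts and 0 counts in every library had the same deposited length in all 12 libraries. In 57.7% of them this length was within 1% of the plain mean of the GENCODE 29 transcript lengths, and for COL4A5 that mean is 2276 bases, for PGM5 1805 and for DAPK1 2461. DAPK1, a calcium-regulated kinase linked to cell death, had 0, 0 and 2 counts in LmnB1_6 and a listed length of 2462 bases at 0 counts. RELN, a large secreted glycoprotein that guides neurons, had 2, 4 and 4 counts there. The differences of LmnB1_16 from LmnB1_6 of 1.52 in COL4A5, 1.61 in RELN and 1.09 in PGM5 were the 3 that passed by limma, and they set lengths listed at 0 to 4 counts against measured ones. Without LmnB1_6 the ratios between constructs were -0.017, 0.027 and 0.051. MITF and OTX2 were at or near 0 in the same clone, and their part in these values was not tested.

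Another 6 entries belong to genes with a near-identical copy, between which reads can be split by the quantifier. PLCXD1, a phospholipase-like gene of the pseudoautosomal region, was longer by 0.43 as the X entry and shorter by -0.64 as the Y entry. The X entry measured 1726, 1707 and 3992 bases in mCherry_3 and 5038, 1654 and 5024 in LmnB1_16, while the Y entry measured 5023, 4725 and 2575, and 1338, 4201 and 1289. In these 2 clones a library with a long X entry had a short Y entry. With both copies combined, weighted by abundance, the ratio was -0.18. DHRSX, a dehydrogenase gene of the same region, had a ratio of -0.42 as the X entry and of -0.16 with its copies combined. NPIPB4 (-0.47), NPIPB12 (0.36) and FAM156A (-0.30) have near-identical copies elsewhere in the genome, and their values are uncertain for that reason.

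The other longer entries were PRELID2, NOL4L and PLLP. PRELID2, of a family of mitochondrial lipid transfer proteins, measured 1508 ± 183, 1186 ± 158, 1888 ± 120 and 1583 ± 204 bases in mCherry_3, mCherry_4, LmnB1_6 and LmnB1_16. NOL4L had 2641 ± 585, 2418 ± 305, 3031 ± 356 and 3717 ± 471 bases, and the myelin membrane protein gene PLLP had 997 ± 150, 913 ± 227, 1082 ± 348 and 1367 ± 122. Clones of a construct differed about as much as constructs did in PRELID2, whose ratio was 0.20 without mCherry_4.

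The other shorter entries included 4 genes of the rule for naming and 8 that are named after their values were seen. Of the first, ZNF780A, a zinc-finger gene, measured 2173 ± 741, 1959 ± 645, 1418 ± 458 and 1730 ± 351 bases in the 4 clones in the same order. CASP1 measured 1042 ± 118, 1068 ± 286, 764 ± 386 and 945 ± 68.6, ANKRD12 5646 ± 713, 6713 ± 775, 5518 ± 622 and 4422 ± 303, and PYROXD1, a flavin oxidoreductase, 2685 ± 968, 2762 ± 385, 2211 ± 132 and 2178 ± 389. The 8 others were the microtubule-binding EML2 (-0.37), the adenylate kinase AK5 (-0.35), C18orf32 (-0.35), the helicase ZGRF1 (-0.35), the zinc-finger gene ZFP90 (-0.34), FAM120C (-0.34), the asparaginase ASRGL1 (-0.33) and the synaptic scaffold TANC2 (-0.33). In C18orf32 the SD between libraries of a clone was 0.75, more than the ratio itself.

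Read counts and effective length set the TPM of a gene together, so the ratio of reads and the ratio of TPM were compared in each entry. Of the 15 longer entries 9 had a higher mean CPM in the LmnB1 libraries and 4 a higher mean TPM. Of the 27 shorter entries 8 had a higher mean CPM and 14 a higher mean TPM. The 2 ratios had opposite signs in 11 entries, among them CABYR (CPM 0.22, TPM -0.14), PIGL (0.28 and -0.22), CYB5RL (0.23 and -0.21) and the Y entry of PLCXD1 (-0.48 and 0.24). In 19 entries the CPM ratio was within 0.3 of 0, and in 9 of these the TPM ratio was not. UQCC5 was one of the 9, at -0.10 in CPM and -0.60 in TPM. These signs follow from the lengths by which the entries were chosen.

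**Figure D4:**
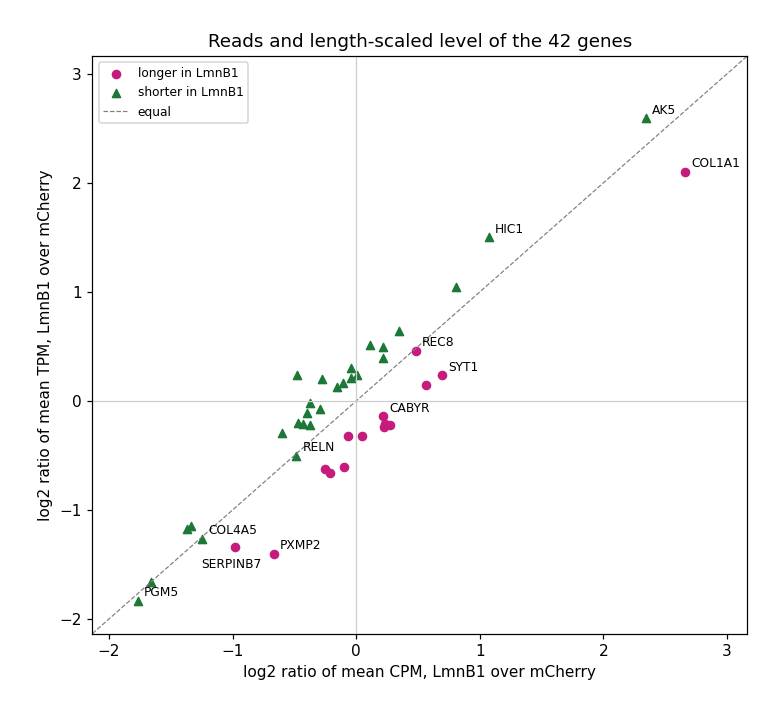
Log2 ratio of mean TPM (y axis) against log2 ratio of mean CPM (x axis), LmnB1 over mCherry, for the 42 entries, split by the direction of effective length. Entries longer in LmnB1 lie below the dashed line of equality and shorter ones mostly above it, as the division by length requires.

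Counts of these genes were also tested between clones of a construct. The share called between the mCherry clones was near that of protein-coding genes at the same TPM. Between the mCherry clones 20 of the 42 (47.6%) passed the edgeR test, 10 higher and 10 lower in mCherry_4, against 37.4% of the 15388 genes tested and 44.3% of protein-coding genes at the same TPM. Between the LmnB1 clones 24 of the 42 (57.1%) passed, 12 in each direction, against 34.4% and 36.8%. These include the 5 entries with fewer than 10 counts in each LmnB1_6 library, which met the TPM minimum through LmnB1_16. With effective length as an offset in the model, 15 of the 42 passed between the LmnB1 clones, against 27.2% of all genes and 29.1% of the same protein-coding genes in that model. AK5, for example, fell from LmnB1_6 to LmnB1_16 by -3.08 (SE 0.12, edgeR adjusted p = 3.41e-12), and its TPM was 4.26, 9.22, 72.6 and 8.81 in the 4 clones. Between constructs 9 of the 42 (21.4%) passed, against 17.8% of all genes and 20.2% of the same protein-coding genes, and nothing is read from this count because the choice used the same contrast.

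Genes that act on transcript structure were then described from 5 lists, none of which was chosen by effective length. Between the constructs 33 of the 89 tested passed the edgeR test, against 17.8% of all genes, with 32 higher in LmnB1 (8.58% of all genes were higher) and 1 lower (9.25% of all genes were lower). With the clone as the sample none of these calls held. On counts summed per clone edgeR called 0 of the 89 (smallest adjusted p = 0.778). With the clone as a random effect limma called 0 (smallest adjusted p = 0.0798). At an unadjusted p under 0.05 these fits had 3 and 28 of the 89, against 642 and 2327 of the 15388 genes tested. How many of all genes the limma fit called is not given here. The counts of each list below are from the fit over libraries, in which the 3 libraries of a clone stand as separate samples. None of the 89 is among the 42 entries, and the largest absolute log2 ratio of effective length among those at 5 TPM was 0.15. The lists had medians of 0.17 (SR proteins), 0.29 (hnRNP proteins), 0.14 (tissue splicing regulators), 0.16 (cleavage and polyadenylation factors) and 0.15 (decay factors), beside a median of 0.002 over all genes tested.

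Of 22 hnRNP genes, whose proteins bind nascent RNA, 11 were called higher and 0 lower over libraries. With clone as a random effect 0 were called (smallest limma adjusted p = 0.0798), and 2 passed in each of the 4 pairs of clones. HNRNPR stood at 265 ± 18.7 CPM in mCherry_3 and 323 ± 13.7 in mCherry_4, and 366 ± 12.8 in LmnB1_6 and 462 ± 9.03 in LmnB1_16 (SD, n = 3), a log2 fold change of 0.49 (SE 0.10, edgeR adjusted p = 0.00778). PTBP2 was higher by 0.60 and PCBP2 by 0.32. Of 13 SR genes, whose proteins bind exonic enhancers, 4 were called higher and 0 lower over libraries, and 0 with clone as a random effect (smallest limma adjusted p = 0.116). SRSF1 stood at 298 ± 0.56, 369 ± 25.1, 416 ± 9.60 and 443 ± 16.7 CPM in the same order. The other 3 were SRSF3 (0.30), SRSF4 (0.21) and TRA2B (0.25).

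Of 23 cleavage and polyadenylation genes 11 were called higher and 0 lower over libraries. With clone as a random effect 0 were called (smallest limma adjusted p = 0.153), and 1 passed in each of the 4 pairs of clones. Among the 11 were CPSF6 (0.35) of the cleavage factor that binds upstream of the cut, PABPN1 (0.35), which binds the growing poly(A) tail, and CPSF3 (0.22), the endonuclease. Of 16 decay genes UPF2 (0.22), MAGOHB (0.45) and RBM8A (0.18) were called higher and 0 lower over libraries, and 0 with clone as a random effect (smallest limma adjusted p = 0.187). Of 23 listed tissue splicing regulators 15 passed the count filter. KHDRBS1 (0.42), RBM47 (3.42) and RBM20 (3.64) were called higher and RBMS3 (-0.51) lower over libraries. With clone as a random effect 0 were called (smallest limma adjusted p = 0.104). RBM20 was high in 1 clone only, at 0.74, 0.79, 19.01 and 0.13 CPM in mCherry_3, mCherry_4, LmnB1_6 and LmnB1_16. RBM47 was low in all 4 clones, at 0.27, 0.03, 1.78 and 1.64 CPM in the same order.

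The count of 33 also depended on single clones. It was 5 without mCherry_3, 51 without mCherry_4 and 8 without LmnB1_6, and 6 of the genes passed in each of the 4 pairs of clones. The count without LmnB1_16 and the share of all genes called in each setting are not given here. The change in the count is therefore not read as a trait of the lists. Among all genes, edgeR on counts summed per clone called 0 (642 had an unadjusted p under 0.05).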

How the data were processed

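The 12 libraries of messenger RNA came from 4 hTERT RPE-1 clones, grouped by the clone names in the sample titles. Per the file headers, the authors deposited for each library and gene an estimated count of fragments, TPM, length and effective length in bases. TPM were deposited after division by effective length, and the estimated counts as deposited carry no scaling. STAR, Salmon and DESeq2 and the build GRCh38 (hg38) are named in the submitters' processing notes, without versions. The sources used here give neither the annotation release nor the strand setting, so antisense partners may share reads. Gene names and transcripts come from GENCODE 29, in which 58440 of the 60708 identifiers were found without their version.

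The members were taken by the rule that opens the report, and the members and gene lists were chosen with earlier results of these data known. Log2 effective length was tested with limma 3.58.1 (trend, no pseudocount) and rounded counts with edgeR 4.0.16 (glmQLFit and glmQLFTest, TMM factors, filterByExpr by clone, 15388 genes) in R 4.3.3, both with the 4 clones as groups for contrasts of clones, and edgeR with the 2 constructs as groups for contrasts of constructs, each with Benjamini-Hochberg adjustment over all genes fitted. A gene was called at an adjusted p under 0.05. DESeq2 1.42.0 was an alternative. CPM are counts scaled with TMM factors. Both tests were tested on simulated data. The members had a median of 329 counts per library, and effective length is an estimate whose own counting error is not in the files.

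Genes named are the 12 largest rises and falls in effective length, members with groups apart and clones alike, the 5 largest clone differences in each construct, the 5 genes on each side of the threshold, and up to 4 called genes of each regulator list. Alternatives were the thresholds, the Length column, library centring, leaving out each library or clone, other size factors, no filter, DESeq2, effective-length offsets, a replicate block, counts summed per clone and clone as a random effect. Keeping only members with 10 counts in every library, and leaving out genes with near-identical copies, were chosen after seeing the data.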

Additional observations from a re-analysis of the deposited data

How the results depend on the processing

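The count of 42 depends on its thresholds. It was 192 at a minimum of 1 TPM, 13 at 10 TPM, 186 at an absolute ratio of 0.2 and 3 at 0.5. It was 81 without mCherry_3, 95 without mCherry_4, 82 without LmnB1_6 and 105 without LmnB1_16, and 46 to 60 with 1 library left out. Of the entries, 37 had 10 counts in every library and 31 remained when genes with near-identical copies were also left out. The log2 ratio changed sign without LmnB1_6 in RELN (0.027) and PGM5 (0.051) and without mCherry_3 in REC8 (-0.061) and PXMP2 (-0.037). The count of 3 entries called in length between the LmnB1 clones was 0 with 10 counts in every library, also without copies. Entries called in counts were 15 with effective-length offsets between the LmnB1 clones. Between constructs they were 4 without mCherry_3, 19 without LmnB1_16 and 2 with clone as a random effect. With counts summed per clone they were 0, with 4 at an unadjusted p under 0.05 in edgeR, against 642 of all genes. No share of all genes is given for the other settings between constructs, and nothing is read from these counts. Of the regulators, 5 were called without mCherry_3, 51 without mCherry_4, 8 without LmnB1_6 and 16 to 41 with 1 library left out. With counts summed per clone 0 were called, with clone as a random effect 0, and in all 4 pairs of clones 6. The count without LmnB1_16 and the share of all genes in each setting are not given, and nothing is read from these counts.

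The labels number the replicates 1 to 3 in each clone. Deviations of libraries with the same number correlated between -0.05 and 0.18 in log2 CPM and between -0.07 and 0.14 in log2 effective length (18 pairs each). They were not over 0.1 in every pair, so the numbers were not taken as pairing the samples. The replicate 3 libraries of mCherry_4, LmnB1_6 and LmnB1_16 did correlate, at 0.12 to 0.18 and 0.12 to 0.14, and 6 and 7 of the 12 libraries correlated best with their own number, which is a hint from the data and not the design. With a replicate block, 1 and 3 entries were called in length, 21, 24 and 7 in counts (mCherry clones, LmnB1 clones and constructs) and 24 regulators. Shares of all genes under this block are not given, and nothing is read from these counts. The 5 entries with fewer than 10 counts in a library had them in LmnB1_6 alone, while all libraries held 20.6 to 29.5 M counts. In 12 of the 42 the ratio was under 1 SD of libraries of a clone.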

Other observations

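Genes outside the rule also differed in effective length between clones of a construct, and those named here were chosen after their values were seen. SUGCT, a mitochondrial enzyme of glutarate metabolism, measured 957 ± 266 bases in mCherry_3 and 535 ± 60.5 in mCherry_4, and 278 ± 3.72 in LmnB1_6 and 1264 ± 60.1 in LmnB1_16 (SD, n = 3). Its TPM was 5.83, 8.72, 111 and 2.10 in the same order, so the clone with the shortest form had the highest level. LmnB1_16 exceeded LmnB1_6 in effective length by 2.19 on the log2 scale (SE 0.17, limma adjusted p = 0.000809). CCDC88B, a gene for a coiled-coil protein, differed by -0.76 between the mCherry clones (SE 0.09, limma adjusted p = 0.0294).

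The TPM and ratio thresholds, applied to genes that are not protein coding, took 4 more. They were the antisense RNA ATP6V0E2-AS1 (0.33), the pseudogene PTMAP5 (0.55), an antisense RNA listed as ENSG00000233461 (0.79) and a long intergenic RNA listed as ENSG00000277991 (-0.30). Since the strand setting is not given, an antisense gene and its partner may share reads.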
